A study of Mus musculus with 18 samples.

Results

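Zinc handling in the ileal epithelium was examined through 9 genes: the metallothioneins Mt1, Mt2, Mt3 and Mt4, the zinc-sensing transcription factor Mtf1, and the membrane transporters Slc30a1, Slc30a10, Slc39a4 and Slc39a5. They were found on the array by gene symbol, with every probe of each gene kept, which gave 13 of 56605 probes and 9 of 37074 gene names. All 13 probes passed the detection filter, Mt4 only through its signal in chow-fed mice, and they belong to the 32726 probes of 21542 gene names that were tested. The group was chosen because an Mt1 probe differed between genotypes, so genotype differences are described below without a test.

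Metallothioneins are small cysteine-rich proteins that bind zinc and copper inside the cell. Their genes are switched on when free zinc rises and MTF1 binds metal response elements in their promoters, and also by glucocorticoids and stress. In enterocytes, dietary zinc enters through ZIP importers (Slc39a genes), is buffered by metallothionein and leaves through ZnT exporters (Slc30a genes), with Slc30a1 a known MTF1 target beside Mt1 and Mt2.

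The mice, on a C57BL6/J background, carried floxed Ppargc1a alleles in all groups. Control mice without the Cre transgene received chow (iPGC1afl/fl CHOW, n = 6) or a diet with 42% of kcal from fat and 0.2% cholesterol (iPGC1afl/fl HFD, n = 6; a Western diet in the study's own words). Mice labelled iPGC1a-/- carried in addition a Vil1-Cre transgene, which deletes the floxed exons in cells where the Villin promoter is active, and received the same fat-rich diet (iPGC1a-/- HFD, n = 6). Mice were 8 weeks old when the 8 weeks of feeding began and were killed at Zeitgeber time 3. The sources differ on fasting: the study describes an overnight fast and the series text animals fasted at random. iPGC1a-/- mice on chow were not analysed here. Cells were shaken off the ileum in a citrate chelating buffer, and 1 Agilent one-colour array was hybridised per mouse. Since the iPGC1a-/- mice differ from controls by both the lost Ppargc1a exons and the Cre transgene, the parts of these in any genotype difference cannot be told apart.

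Each of 3 slides carried 2 mice per group, 18 arrays in all. Between 56.3% and 62.3% of spots per array exceeded background clearly, and 0 were flagged as saturated. Enterocyte markers were bright in all groups, with Vil1 at a mean log2 signal of 16.29 in iPGC1afl/fl CHOW and 16.49 in iPGC1afl/fl HFD. The label iPGC1a-/- did not go with a lower Ppargc1a signal, whose brighter probe ranged from 11.36 to 12.01 in these mice and from 11.26 to 11.44 in iPGC1afl/fl HFD. Whether its probes lie in the deleted exons was not determined, so genotype is given as labelled. The study itself reports that RT-qPCR for the targeted gene bore out the deletion in the intestine. All levels below are log2 normalised signals, in which 1 unit is a doubling. Levels of different probes are not comparable with each other. In bulk RNA, fewer cells of a type and less RNA per cell cannot be told apart.

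The array holds 2 probes for Mt1, the main inducible metallothionein of the intestine, and their sequences are shown because the probes answered differently. Both lie on the plus strand of chromosome 8 (mm9, the build of the array files), the brighter at chr8:96704165-96704224 and the dimmer 321 bases upstream at chr8:96703844-96703903. The array annotation ties the brighter probe to the curated RefSeq Mt1 transcript and a predicted variant, and the dimmer probe to that predicted variant without the curated transcript. Exon, intron and UTR positions were not determined, because the annotation used here is on another build. The Mt2 probe lies at chr8:96697371-96697430. Bases 31 to 60 of the brighter Mt1 probe and of the Mt2 probe, and bases 1 to 30 of the dimmer Mt1 probe, read 5′ to 3′ as follows, with a polyadenylation hexamer (AATAAA) in capitals.
Mt1 brighter probe: gtacgtgaatAATAAAagcctgtttgagtc
Mt1 dimmer probe: aactggctctgagaaatgtcctttgcttcc
Mt2 probe: ctcgttctccacaactttttctataaagca
The hexamer stands in the brighter Mt1 probe and neither AATAAA nor ATTAAA in the other 2 probes. Over their 60 bases, the brighter Mt1 probe and the Mt2 probe share no run longer than 7 bases and match at 24 positions in their best ungapped alignment.

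The 4 metallothionein genes follow each other on chromosome 8 in the order Mt4, Mt3, Mt2 and Mt1, with no other protein-coding gene of the RefSeq annotation (GRCm38.p6) between them. Promoters were searched on both strands for the core of the metal response element, spelled TGCACNC or TGCGCNC, in the 250 bases before and 50 after the annotated start. Of the 9 genes, 8 had a promoter in the table. Of all 32851 promoters, 25.7% held at least 1 match, 7.11% at least 2, 1.97% at least 3 and 0.517% at least 4. Mt2 held 4 matches, Mt1 and Slc30a10 held 3, Slc30a1 held 2, Mt3 and Mt4 held 1, and Mtf1 held 0. In Slc30a10, matches on opposite strands overlap. Slc39a5 has 2 annotated starts, with 1 match at one and 0 at the other. The 250 bases before the start of the 3 known MTF1 targets are printed 5′ to 3′ along the gene, with matches in capitals (Mt1 chr8:94178839-94179088, Mt2 chr8:94172368-94172617 and Slc30a1 chr1:191906531-191906780, all plus strand of GRCm38.p6, sequences from RefSeq).
Mt1 promoter: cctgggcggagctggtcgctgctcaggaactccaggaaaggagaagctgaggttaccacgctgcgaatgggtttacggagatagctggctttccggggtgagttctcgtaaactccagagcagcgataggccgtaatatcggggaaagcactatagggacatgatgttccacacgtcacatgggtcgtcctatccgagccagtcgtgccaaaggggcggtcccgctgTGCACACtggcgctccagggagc
Mt2 promoter: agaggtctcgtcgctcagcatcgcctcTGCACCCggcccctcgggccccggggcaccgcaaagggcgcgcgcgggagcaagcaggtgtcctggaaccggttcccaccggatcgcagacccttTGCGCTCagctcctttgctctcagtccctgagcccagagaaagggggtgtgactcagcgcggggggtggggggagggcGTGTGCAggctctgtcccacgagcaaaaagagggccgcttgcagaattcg
Slc30a1 promoter: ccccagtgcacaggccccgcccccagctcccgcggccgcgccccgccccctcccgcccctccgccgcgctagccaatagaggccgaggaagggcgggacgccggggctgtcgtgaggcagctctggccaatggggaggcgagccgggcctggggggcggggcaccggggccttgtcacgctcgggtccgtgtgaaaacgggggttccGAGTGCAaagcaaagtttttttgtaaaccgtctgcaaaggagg
In these stretches Mt1 shows 1 match, Mt2 shows 3 and Slc30a1 shows 1, and the remaining matches of the 3 genes lie at or after the start. A match describes the letters and does not show that MTF1 binds there.

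At the dimmer Mt1 probe, the arrays labelled iPGC1a-/- stood far above both control groups. The signal was 10.46 at the lowest, 10.79 at the median and 10.99 at the highest in iPGC1a-/- HFD. In iPGC1afl/fl HFD the corresponding values were 7.41, 7.82 and 8.62, and in iPGC1afl/fl CHOW 6.62, 6.82 and 7.67. The lowest iPGC1a-/- array was thus above the highest control array on either diet. The means were 10.75 ± 0.22 in iPGC1a-/- HFD, 8.00 ± 0.50 in iPGC1afl/fl HFD and 6.97 ± 0.41 in iPGC1afl/fl CHOW (SD, n = 6 each). The difference by genotype on HFD was 2.76 on the log2 scale (standard error 0.20), 6.77-fold, and within the 3 slides it ranged from 2.48 to 3.30. By size it ranked 1 of the 32726 probes, and it belongs to the contrast by which the genes were picked. A probe reads any transcript that holds its sequence. The sequence of the Vil1-Cre transgene, carried by all iPGC1a-/- mice and by no control, was not examined here, so it was not tested whether the signal of the Mt1 probes in these mice comes from the Mt1 gene alone.

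The signal of the brighter Mt1 probe, to which the same limit applies, also separated the genotypes, by less. It ranged from 17.44 to 17.85 with a median of 17.51 in iPGC1a-/- HFD and from 15.92 to 16.53 with a median of 16.31 in iPGC1afl/fl HFD. In iPGC1afl/fl CHOW it ranged from 14.89 to 17.21 with a median of 15.90. The HFD groups did not overlap, while chow-fed controls spread over more than the whole range of the HFD controls and came up to just under the lowest iPGC1a-/- array. The genotype difference was 1.31 (standard error 0.29), 2.48-fold, and 1.15 to 1.47 within slides. Its highest raw signal was 246301 intensity units. Of all 32726 probes, 0.856% had HFD groups that did not overlap by genotype, against 2 of the 13 probes here, both of Mt1, from which nothing is read since the rule used this contrast.

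**Figure D1:**
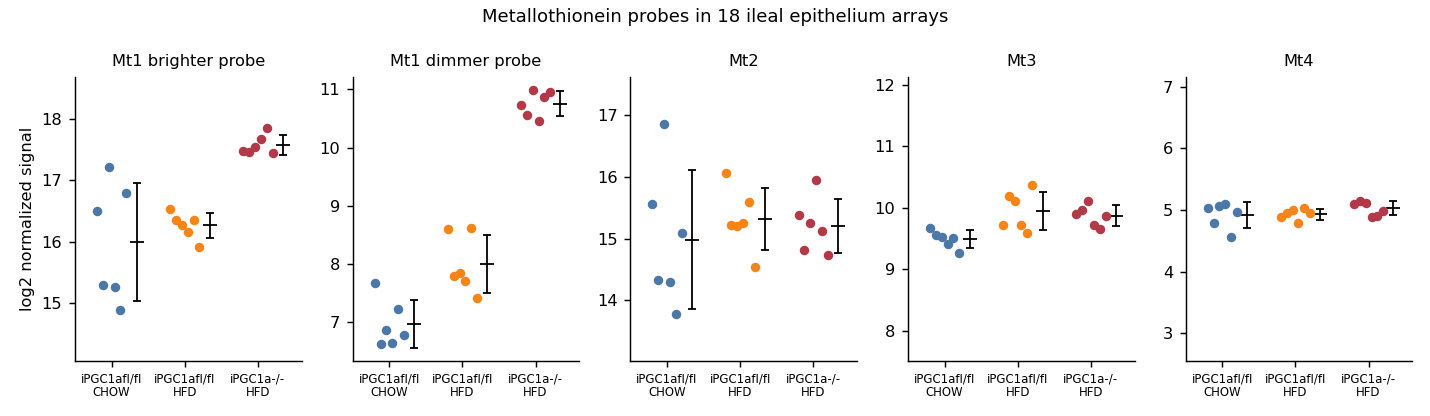
Log2 normalised signal (y axis) of the 5 metallothionein probes in each of the 18 arrays, by group (x axis). Points are mice, and the bar beside them is the mean with its SD (n = 6). Both Mt1 probes are highest in iPGC1a-/- HFD, at 10.46 or above for the dimmer and 17.44 or above for the brighter, while Mt2, Mt3 and Mt4 overlap between the HFD groups.

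The probes of the neighbouring metallothioneins did not show the genotype difference of the Mt1 probes, which was not tied to the Mt1 locus by any test here. Mt2, which encodes the other ubiquitous isoform and is usually induced together with Mt1, ranged from 14.73 to 15.94 (median 15.18) in iPGC1a-/- HFD and from 14.55 to 16.07 (median 15.24) in iPGC1afl/fl HFD. The groups overlapped almost completely, with a difference of -0.11 (standard error 0.38). Mt3, best known from the brain, differed by -0.08 and Mt4, known from stratified squamous epithelia, by 0.09. Within 500 kb of the brighter Mt1 probe, 28 further probes of 20 gene names, Mt2, Mt3 and Mt4 among them, were tested. Their genotype differences lay between -0.21 (Arl2bp) and 0.37 (Herpud1). Larger differences are rare on the whole array, where 1.31 ranked 18 by size and 0.39, at Slc39a5, ranked 913 of 32726. Small differences are thus not particular to this window.

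**Figure D2:**
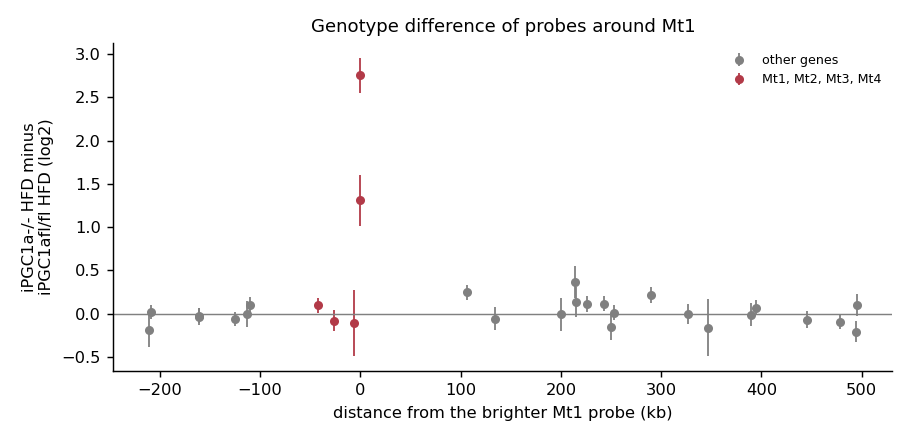
Genotype difference on HFD (iPGC1a-/- minus iPGC1afl/fl, log2 scale, y axis) of each tested probe against its distance in kb from the brighter Mt1 probe (x axis), with the standard error as bars. The Mt1 probes stand at 2.76 and 1.31, and the other 28 probes lie between -0.21 and 0.37.

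Among the remaining genes, the genotype differences on HFD were smaller than those of Mt1, which follows from the choice of Mt1 by this contrast. The 4 probes of Mtf1 differed by -0.16 to 0.18. Slc30a1, the zinc exporter of the basolateral membrane, differed by -0.12 (standard error 0.18) and Slc30a10, known chiefly as a manganese exporter, by -0.01 (standard error 0.19). The importers stood higher on average in the arrays labelled iPGC1a-/-. Slc39a4, the apical zinc importer lost in acrodermatitis enteropathica, differed by 0.24 (standard error 0.14). Slc39a5, a basolateral importer, differed by 0.39 (standard error 0.13) with a median of 10.36 and a highest value of 10.94 in iPGC1a-/- HFD, against a median of 10.12 and a highest value of 10.31 in iPGC1afl/fl HFD. These groups overlapped.

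The second comparison asked how the same genes responded to diet in control mice. It did not enter the choice of the genes, although its 6 iPGC1afl/fl HFD arrays also served in the genotype contrast that did. A gene was called when limma gave any of its probes an adjusted p (Benjamini-Hochberg, over all 32726 probes) of at most 0.05 and a change of more than 1.5-fold. By this rule, 3 of the 9 genes were called, with Mt1 higher and Slc30a1 and Slc30a10 lower on HFD. Over all 21542 gene names, 9.09% were called in either direction, 3.51% higher and 5.59% lower. By adjusted p alone, Mt1, Mt3 and Slc39a5 were higher and Slc30a1 and Slc30a10 lower, 5 of 9 genes, against 27.3% of all gene names, 11.6% higher and 15.8% lower. At the brightest probe of each gene the median diet difference was 0.10 over the 9 genes and 0.00 over all gene names.

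Mt1 rose on HFD at the dimmer probe and did not pass the test at the brighter one. From the values above, the dimmer probe differed by 1.03 (standard error 0.20, adjusted p = 0.000941), 2.04-fold, and the groups overlapped, since the highest chow array at 7.67 lay above the lowest HFD array at 7.41. Within slides the difference was 0.92 to 1.22. Permuting diet over the 12 control mice (exact, two-sided) gave p = 0.00433, with no adjustment for the 13 probes looked at. The brighter probe differed by 0.27 (95% confidence interval -0.34 to 0.88, adjusted p = 0.538). The probes of one gene therefore gave different calls, and their mean differed by 0.65 (adjusted p = 0.0211).

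Mt2 and Mt3 were higher on average on HFD but neither was called. Mt2 ranged from 13.77 to 16.87 (median 14.70) on chow and from 14.55 to 16.07 on HFD, a difference of 0.33 (95% confidence interval -0.46 to 1.12, adjusted p = 0.570). Mt3 ranged from 9.27 to 9.68 (median 9.52) on chow and from 9.60 to 10.37 (median 9.92) on HFD. Its difference of 0.46 (standard error 0.12, adjusted p = 0.00981) passed the p threshold at 1.37-fold, below the fold required, and was positive within each slide (0.29 to 0.56). Mt4 stayed near background, well above it on 5 of 6 chow arrays, 1 of 6 iPGC1afl/fl HFD arrays and 2 of 6 iPGC1a-/- HFD arrays, and differed by 0.01.

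The brighter Mt1 probe and Mt2 varied more between chow-fed than between HFD-fed control mice, and the dimmer Mt1 probe did not. The SD of the brighter Mt1 probe was 0.96 on chow and 0.21 on HFD, that of Mt2 was 1.12 and 0.50, and that of the dimmer Mt1 probe was 0.41 and 0.50. A wider spread on chow was not particular to the metallothioneins. Slc39a4 had SDs of 0.42 on chow and 0.08 on HFD, Slc30a10 0.51 and 0.24, and Sgk1, outside the members, 0.84 and 0.20. It was not wider for Mt3 (0.14 and 0.31) or Slc39a5 (0.17 and 0.18). On chow the brighter Mt1 probe split into 3 low arrays, at 14.89, 15.27 and 15.29, and 3 high arrays, at 16.50, 16.79 and 17.21. The same 3 mice were low for Mt2, at 13.77, 14.30 and 14.32, and the same 3 were high, at 15.09, 15.57 and 16.87. Mt2 did not split as clearly, since its widest gap lay within the high mice, between 15.57 and 16.87. The brighter Mt1 probe and Mt2 correlated on chow with Pearson r = 0.92 (exact permutation p = 0.00417, Benjamini-Hochberg adjusted 0.025 over 6 relations). Spearman rho was 0.94 (exact p = 0.0167, adjusted 0.1). Without the 2 mice farthest from the Mt1 median, r was 0.89. With the brighter Mt1 probe split in this way, r mostly restates the split. The dimmer Mt1 probe did not follow this split, with the low mice at 7.22, 6.65 and 6.62 and the high mice at 7.67, 6.77 and 6.86.

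On HFD, Mt1 at its brighter probe and Mt2 correlated with Pearson r = 0.93 (exact permutation p = 0.0236, Benjamini-Hochberg adjusted 0.0583 over 6 relations) and Spearman rho = 0.71 (exact p = 0.136, adjusted 0.272) over the 6 control mice. Without the 2 mice farthest from the median, r was 0.40, so the relation rests on those mice. In iPGC1a-/- HFD, r was 0.40 (exact permutation p = 0.438, adjusted 0.656) and rho 0.60 (exact p = 0.242, adjusted 0.362), and r was 0.72 without the 2 farthest mice. Neither of these relations passed after adjustment. The 6 relations pair the brighter Mt1 probe with Mt2 and with the dimmer Mt1 probe in each of the 3 groups. The 2 Mt1 probes correlated with r = 0.82 in iPGC1afl/fl HFD (exact permutation p = 0.0292, adjusted 0.0583), and 0.54 without the 2 farthest mice. In iPGC1a-/- HFD their r was -0.03 (exact permutation p = 0.958, adjusted 0.958), and 0.41 without the 2 farthest mice. On chow the 2 Mt1 probes had r = 0.13 (exact permutation p = 0.783, adjusted 0.94), and 0.56 without the 2 farthest mice. Only the chow relation of the brighter Mt1 probe with Mt2 passed after adjustment. It did so by Pearson r and not by Spearman rho.

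**Figure D3:**
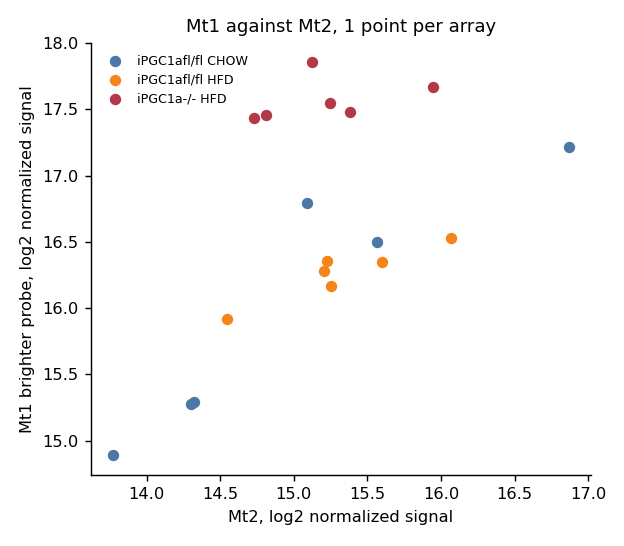
Log2 normalised signal of the brighter Mt1 probe (y axis) against that of Mt2 (x axis), 1 point per array and coloured by group. Chow arrays fall into 3 low and 3 high for the brighter Mt1 probe, and the same mice are low and high for Mt2, less clearly split. The iPGC1a-/- HFD arrays lie above all others in Mt1 while their Mt2 range of 14.73 to 15.94 falls inside that of iPGC1afl/fl HFD.

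Likeness to Mt1 was also described across all genes, over the deviations of the 18 arrays from their group means at the brighter Mt1 probe. The 5 most alike were Pip5k1a, a phosphoinositide kinase (r = 0.89), Mt2 (0.86), Aqp8, a water channel (0.86), Hic2, a transcriptional repressor (0.83), and Zfp787, a zinc finger protein (0.82). The chow-fed mice, with the widest spread, carry most weight in these values, and all points share the arrays and their normalisation. Slc30a1 stood at 0.17 and the dimmer Mt1 probe at 0.20. The 4 Mtf1 probes had no common sign, at -0.22 for the brightest and at -0.35, 0.47 and 0.50 for the others.

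Mtf1 itself was measured by 4 probes on chromosome 4 that did not pass the test for diet. Its brightest probe ranged from 11.81 to 12.59 (median 12.29) on chow and from 12.19 to 12.51 (median 12.39) on HFD, a difference of 0.10 (95% confidence interval -0.15 to 0.34, adjusted p = 0.584). The other probes differed by -0.22 to 0.29, with adjusted p from 0.184 to 0.639.

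Slc30a1, which carries zinc out of the cell, fell on HFD. It ranged from 8.47 to 9.54 (median 8.89) on chow and from 7.56 to 8.40 (median 8.29) on HFD, at chr1:193736760-193736819 (mm9). Every HFD control lay below every chow control, and the iPGC1a-/- HFD arrays, at 7.66 to 8.38, also lay below them. The means were 8.98 ± 0.45 and 8.15 ± 0.32 (SD, n = 6 each), and the difference of -0.83 (standard error 0.18, adjusted p = 0.00251) is a 1.78-fold lower signal. The exact permutation test gave p = 0.00216, the smallest that 924 divisions of 12 mice allow, with no adjustment for the 13 probes looked at. Any probe whose groups do not overlap reaches this p, so it adds nothing to the lack of overlap. Slc30a1 was the only one of the 13 probes whose diet groups did not overlap, which is no more than the 9.48% of all probes. Within slides the difference ran from -1.53 to -0.22.

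Slc30a10 fell by a margin close to the fold limit. It ranged from 7.94 to 9.13 (median 8.43) on chow and from 7.63 to 8.24 (median 7.74) on HFD, so the groups overlapped. The difference was -0.60 (standard error 0.19, adjusted p = 0.0232), 1.52-fold. It was negative within each slide, from -0.85 to -0.47. In 5 of the 18 fits that each leave out 1 array it was not called: without iPGC1afl/fl CHOW replicate 2, 3 or 5 (-0.46, -0.56 and -0.52) and without iPGC1afl/fl HFD replicate 1 or 6 (-0.57 and -0.56). Other normalisations ended the call as well.

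The importers differed from each other. Slc39a4 ranged from 13.72 to 14.87 (median 14.58) on chow and from 14.40 to 14.64 (median 14.49) on HFD, a difference of 0.02 (95% confidence interval -0.28 to 0.32, adjusted p = 0.943). Slc39a5 ranged from 9.40 to 9.91 (median 9.64) on chow and from 9.86 to 10.31 (median 10.12) on HFD. Its difference of 0.43 (standard error 0.13, adjusted p = 0.0203) stayed under the fold limit at 1.35-fold and was positive within each slide. The order of its group means was iPGC1afl/fl CHOW at 9.65 ± 0.17, iPGC1afl/fl HFD at 10.08 ± 0.18 and iPGC1a-/- HFD at 10.48 ± 0.33 (SD, n = 6 each), with neighbouring groups overlapping.

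**Figure D4:**
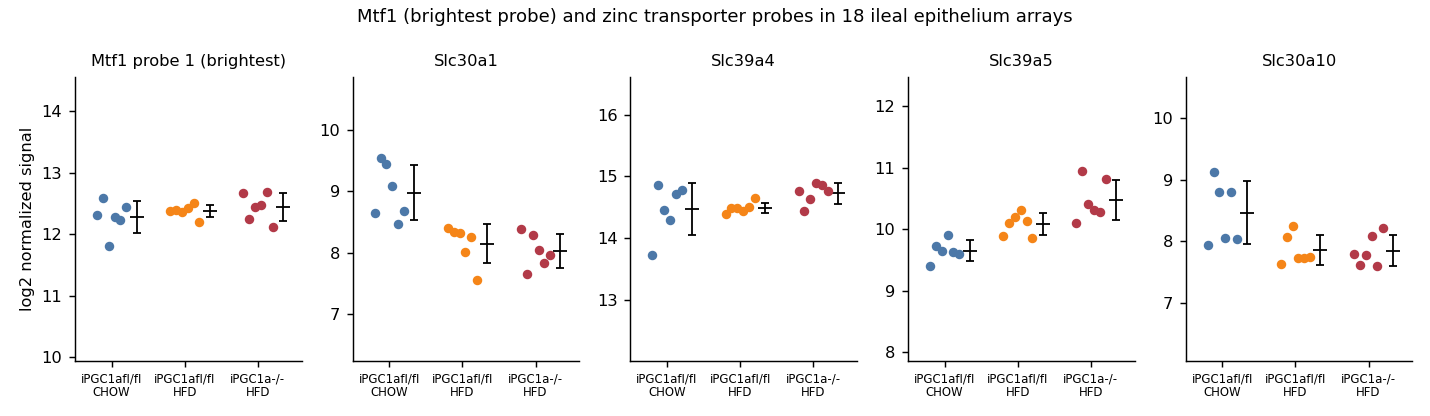
Log2 normalised signal (y axis) of the brightest Mtf1 probe and of the 4 transporters in each of the 18 arrays, by group (x axis), with the mean and SD (n = 6) beside the points. Slc30a1 lies at 8.47 or above in all chow arrays and at 8.40 or below in all HFD arrays of both genotypes, and Slc39a5 has means of 9.65 on chow and of 10.08 and 10.48 in the HFD groups.

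The wider transporter families include the transporter members themselves. Of the 24 Slc30a and Slc39a genes, 20 were tested and 4 were called, 0 higher and 4 lower, beside 3.51% and 5.59% of all gene names. Among the 16 tested that are not members, 0 were called higher and 2 lower. Besides Slc30a1 and Slc30a10 these were Slc39a8, an importer of zinc and manganese, and Slc39a6, a zinc importer. At its brightest probe Slc39a8 ranged from 6.89 to 8.00 on chow and from 5.74 to 6.88 on HFD, a difference of -1.01 (standard error 0.19). Its dimmer probes differed by -0.58 and -0.36 and were not called. Slc39a6 ranged from 6.61 to 7.17 and from 5.91 to 6.55, a difference of -0.59 (standard error 0.12) that is 1.50-fold and on the limit. At the probes whose ranges are given the groups did not overlap for either gene, narrowly so for Slc39a8 at 6.89 against 6.88. The median difference over the 20 genes was 0.00. With 4 other ways of normalising, 2 of the 20 were called, and all 31 settings tried called Slc30a1 and Slc39a8.

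Genes that share a metal or an inducer with the metallothioneins were counted in the same way. Of 9 genes of copper handling, 1 was called, close to the 9.09% of all gene names. It was Slc31a1, the high-affinity copper importer, which ranged from 11.38 to 11.78 on chow and from 11.99 to 12.64 on HFD and rose by 0.61 (standard error 0.09). Without iPGC1afl/fl CHOW replicate 3 or iPGC1afl/fl HFD replicate 6 the count was 0. Of 10 glucocorticoid-responsive genes, 3 were called, beside the same 9.09%. The clock gene Per1 was higher by 1.11 (standard error 0.19) and the kinase gene Sgk1 by 0.88 (standard error 0.27), while Cebpd, a transcription factor of the acute response, was lower by 1.19 on the log2 scale (difference -1.19, standard error 0.32). The median difference was 0.20 over the copper genes and 0.28 over the glucocorticoid-responsive genes.

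Markers of other cell types moved with diet in the same control mice. The counts below stand beside 5.59% of all gene names called lower and 3.51% called higher. Of 4 B cell markers 3 were called lower on HFD. The log2 of their summed unlogged signal was 9.01 to 11.63 on chow and 7.31 to 9.96 on HFD. Such a sum is set mostly by the brightest markers of its list. Of 5 goblet cell markers 4 were called lower, with sums of 18.23 to 18.61 and 17.28 to 18.33. Of 5 T cell markers tested 4 were called lower and 1, Cd4, higher. Their sum, at 13.17 to 14.15 on chow (median 13.65) and 13.49 to 14.37 on HFD (median 13.81), did not follow the 4 lower calls. It mostly reads Cd4, the brightest of the list, with means of 13.10 on chow and 13.72 on HFD. Of 4 plasma cell markers 2 were called lower, with sums of 13.90 to 14.43 and 13.56 to 13.81. These sums hardly read Jchain, a called marker whose mean was 9.62 on chow and 6.39 on HFD. The Paneth (6 tested), enteroendocrine (5) and stem and cycling (5) lists each had 1 marker called lower and 0 higher, and the macrophage, stromal, smooth muscle and endothelial lists had 0 called. Defa17, Trdc, Adgre1, Col1a1 and Cdh5 did not pass the detection filter, and Ms4a1 was well above background on 3 and Mzb1 on 2 of the 6 iPGC1afl/fl HFD arrays. Of 8 enterocyte markers 3 were called higher and 1, Slc10a2, lower, with sums of 19.38 to 19.69 and 19.63 to 19.86. The part of these shifts in the diet differences of Mt1, Slc30a1 and Slc30a10 was not tested.

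**Figure D5:**
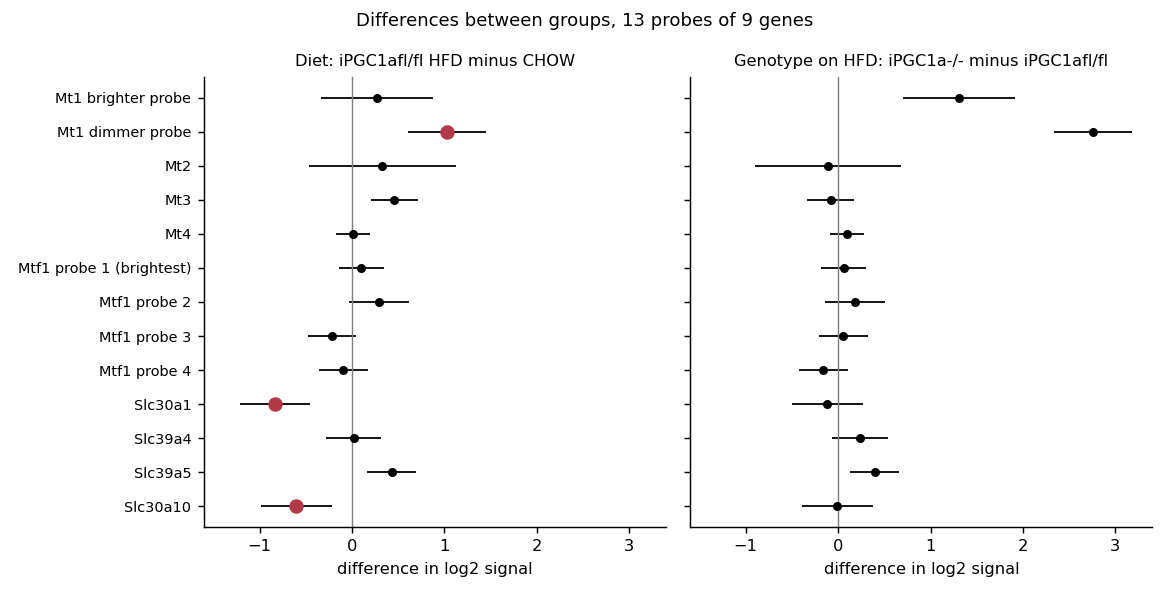
Differences in log2 signal (x axis) of the 13 probes (y axis) with 95% confidence intervals from limma, for diet in control mice (left) and genotype on HFD (right). Larger red points mark the 3 probes called for diet, the dimmer Mt1 probe at 1.03, Slc30a1 at -0.83 and Slc30a10 at -0.60, and the right panel, which holds the contrast the genes were picked by, is a description in which the Mt1 probes stand at 2.76 and 1.31.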

How the data were processed

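Gene expression was measured in ileal epithelial cells with SurePrint G3 Mouse GE v2 arrays (Agilent), 18 in all. The authors deposited the spot intensity values of Feature Extraction 10.10.1.1, not normalised between arrays, and a table of log2 values for 33095 probes that, by their methods, was batch corrected and normalised with qsmooth. The batches are not named in the labels and that correction was not repeated. Control spots and those flagged as outliers, 46 to 153 on each array, were dropped, and replicate spots averaged. A probe was retained when flagged well above background in 5 or more of the 6 arrays of at least 1 group. Median signals were log2 transformed, normalised with an own version of qsmooth (window 0.05) and fitted by limma 3.58.1 (R 4.3.3) as 1 model of 3 groups, with Benjamini-Hochberg adjustment. A gene was called when any of its probes was, while list medians and likeness used its brightest probe. Plots were made in Python. The procedure was tested on simulated arrays. Precision is limited by how many arrays there are: the standard error of a log2 difference had a median of 0.104.

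The members, gene lists and tests were chosen with earlier results of these data known. Genes named were the 9 members, the called genes of the transporter, copper and glucocorticoid lists, and the 5 most like Mt1. Markers were named where a count needed them, Ppargc1a as the targeted gene, and Arl2bp and Herpud1, as the ends of a range, after their values were seen. Labels number 6 replicates per group, which the study treats as separate animals. Alternatives were other signals and normalisations (processed signal, normexp with an offset of 50, quantile, 75th percentile), the deposited log2 table, a strict filter or none, slide or replicate blocks, only the groups compared, trended variance, no fold threshold, averaged probes and each array left out. All 9 symbols matched the annotation of GRCm38.p6, which was used for names, gene order and promoters only.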

Additional observations from a re-analysis of the deposited data

Results flagged for a closer look

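At the dimmest of the 4 Mtf1 probes, iPGC1afl/fl CHOW replicate 3 lay at a log2 signal of 8.30, with the next array of its group at 7.58. This was the 1 group flagged of 39 tested for a sample far from the others (13 probes in 3 groups of 6), where chance flags about 1 in 20. The other Mtf1 probes were not flagged for that array. It still stood at an end of its group at each of them, lowest at 11.81 and 8.38 and highest at 9.56.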

How the results depend on the processing

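Mt1 and Slc30a1 were called for diet under all 31 settings that counted genes, Mt1 higher and Slc30a1 lower. With averaged probes the Mt1 call came from the mean of its 2 probes, and otherwise from the dimmer probe. Over the alternatives other than leaving out an array, the dimmer Mt1 probe ranged from 0.86 to 1.20 (adjusted p 0.000181 to 0.00507) and Slc30a1 from -0.86 to -0.75 (adjusted p 0.0021 to 0.00741). Slc30a10 was called in 22 of the 31 settings. It fell short of the fold limit with normexp (-0.53), quantile normalisation (-0.57), the median signal at the 75th percentile (-0.57) and the authors' log2 values (-0.57). With these 4 settings 2 transporter genes were called in place of 4, and 2 members in place of 3. Without the fold threshold, 5 of 9 members, 8 of 20 transporter genes and 5 of 9 copper genes were called, beside 27.3% of all gene names. Leaving out each array gave 2 to 3 members, 2 to 5 transporter genes, 0 to 1 copper genes and 2 to 3 glucocorticoid-responsive genes. The lowest transporter count came without iPGC1afl/fl HFD replicate 6. The brighter Mt1 probe, averaged with the dimmer, gave 0.65 for diet and 2.03 for genotype, and Mt4 gave 0.24 for genotype with the processed signal. The causes were not tested. Replicate numbers are shared between groups but the labels do not say that they pair mice. Same-numbered arrays had correlations from -0.22 to 0.35 and 8 of 18 arrays correlated best with their own number. With the replicate block 1971 gene names were called against 1959 without, 3 members, 4 transporter genes, 1 copper gene and 3 glucocorticoid-responsive genes among them, and with the slide block 1956.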
